A study of Mus musculus with 2 samples.

Results

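Keratin and keratin-associated genes were taken as the autosomal protein-coding RefSeq genes whose symbols are Krt followed by digits or begin with Krtap. The rule used names alone and no methylation value, and it found 109 of the 20665 autosomal protein-coding genes. Of these, 53 were keratins and 56 were keratin-associated genes. By their main role, 4 keratins were taken as the simple epithelial set (Krt8, Krt18, Krt19 and Krt7), 20 as keratins of stratified epithelia, 8 of the inner root sheath and companion layer of the hair follicle and 15 of hair, and 6 were put in none of these sets. Krt20, which is also known from a simple epithelium, that of the intestine, is among those 6.

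The study profiled DNA methylation by whole-genome bisulfite sequencing in 1 group, the dissected epiblast of wild-type C57Bl6/J mouse embryos collected on embryonic day 6.5. The embryos were XX females, sexed by PCR on their extraembryonic tissue, and came from natural matings with no culture. The labels list 2 samples, but the values come as 1 table without a column per sample, so no replicate error, test or p-value could be given. The epiblast is the pluripotent layer from which all tissues of the fetus arise, and methylation counts hold no RNA with which its marker genes could be checked.

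Keratins are the intermediate filament proteins of epithelial cells. Each filament is built from a type I (acidic) and a type II (basic) chain, and most genes of each type lie side by side in one chromosomal cluster. Krt8 and Krt18 form the earliest keratin pair of the embryo and remain in simple, one-layered epithelia, whereas Krt5, Krt14, Krt1, Krt10 and the hair keratins appear later, in stratified skin and its appendages. Keratin-associated proteins are small proteins rich in cysteine, or in glycine and tyrosine, that crosslink or embed the filaments of the hair shaft.

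Each level below is the share of methylated read counts among all read counts of a region, in percent, with both strands of a CpG added. Ranges in brackets are exact Clopper-Pearson 95% intervals, which carry counting error alone and treat read counts as independent. A read counts at each CpG it spans, and reads without molecular identifiers are not independent molecules. The intervals are therefore too narrow, and the calls and comparisons that rest on them are less certain than they appear. A bulk level cannot tell methylation in a share of the cells from methylation on a share of the alleles. The 19 autosomes held 133245671 read counts on 20383623 CpGs, with a median of 6 read counts per CpG, and 66.3% of these counts were methylated.

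The sequences around 3 starts of simple epithelial keratins are shown first, because the results turn on these genes, with those of an epidermal pair, Krt5 and Krt14, for contrast. Each gives 250 bases before and 30 bases from the annotated start, 5′ to 3′ on the gene's strand, from RefSeq on GRCm38.p6, the assembly of the files' mm10, with every CpG in capitals. Of all members, 36 keratins and 51 keratin-associated genes had an entry in that table.
Krt8: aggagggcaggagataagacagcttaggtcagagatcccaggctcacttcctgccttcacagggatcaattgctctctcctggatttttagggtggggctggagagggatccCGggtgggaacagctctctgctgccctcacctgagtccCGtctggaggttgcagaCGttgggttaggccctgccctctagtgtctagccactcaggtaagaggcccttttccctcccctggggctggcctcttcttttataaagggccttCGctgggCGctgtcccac
Krt18: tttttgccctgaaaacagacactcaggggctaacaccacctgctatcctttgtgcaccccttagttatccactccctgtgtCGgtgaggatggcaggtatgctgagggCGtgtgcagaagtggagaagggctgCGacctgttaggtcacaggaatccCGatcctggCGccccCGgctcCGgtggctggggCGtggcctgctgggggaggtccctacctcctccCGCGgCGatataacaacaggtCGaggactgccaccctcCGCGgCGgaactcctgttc
Krt7: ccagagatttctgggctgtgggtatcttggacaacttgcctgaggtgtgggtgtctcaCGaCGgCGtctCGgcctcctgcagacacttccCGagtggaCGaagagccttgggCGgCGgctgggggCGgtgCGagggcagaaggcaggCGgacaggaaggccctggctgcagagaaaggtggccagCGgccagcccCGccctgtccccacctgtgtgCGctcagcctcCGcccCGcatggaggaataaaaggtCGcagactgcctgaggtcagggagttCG
Krt5: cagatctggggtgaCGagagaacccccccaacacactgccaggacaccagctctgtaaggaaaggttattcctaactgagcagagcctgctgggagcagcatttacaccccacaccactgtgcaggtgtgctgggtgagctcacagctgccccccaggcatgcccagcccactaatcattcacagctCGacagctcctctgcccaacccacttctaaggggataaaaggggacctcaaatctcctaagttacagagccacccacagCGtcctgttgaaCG
Krt14: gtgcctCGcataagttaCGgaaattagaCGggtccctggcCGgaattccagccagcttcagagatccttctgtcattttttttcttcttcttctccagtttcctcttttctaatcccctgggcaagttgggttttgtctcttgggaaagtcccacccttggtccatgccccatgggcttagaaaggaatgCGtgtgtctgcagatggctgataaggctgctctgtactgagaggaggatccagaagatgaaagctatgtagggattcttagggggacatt
The Krt8 stretch (chr15:102004313-102004592, minus strand) had 5 CpGs and 0 methylated of 47 read counts. The upper bound of the exact interval for 0 of 47 is 7.55%, and the limit of 3 counts, used for a count of 0, is 6.38%. The Krt18 stretch (chr15:102027966-102028245, plus strand) had 15 CpGs and 10 methylated of 207 read counts, 4.83%. The Krt7 stretch (chr15:101412153-101412432, plus strand) had 18 CpGs and 52 of 220, 23.6%. The epidermal stretches, each with few CpGs, were mostly methylated. Krt5 (chr15:101712876-101713155, minus strand) had 21 of 29 read counts over 4 CpGs, 72.4%. Krt14 (chr11:100206001-100206280, minus strand) had 25 of 37 over 5 CpGs, 67.6%. This annotated Krt14 start lies inside the gene's interval, so the printed Krt14 sequence is not that of the interval's 5′ end.

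For all 109 genes, levels were taken in a window of 500 bp on either side of each gene end, and the end with more CpGs is called the denser end. A window was measured with at least 5 covered CpGs and 20 read counts. It was called low when its whole interval lay under 20%, high when it lay over 60%, intermediate when it lay between these bounds, and unresolved otherwise. Windows with at least 40 CpGs are called CpG-rich and those with under 20 CpG-poor.

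Most of the family was methylated at the denser end, and the simple epithelial keratins had lower levels. Among the 101 measured members, 2 were called low, 4 intermediate, 58 high and 37 unresolved. Over the 18758 measured autosomal genes, 59.6% were called low, 5.16% intermediate, 19.0% high and 16.3% unresolved. The 4 simple epithelial keratins had a median of 14.2%, the other 49 keratins 74.6%, and the 48 measured keratin-associated genes 72.1%, against 9.70% over all measured genes. No hair keratin and no keratin-associated gene was called low. Of the 56 keratin-associated genes, 50 had CpG-poor windows, a class in which the median over all genes was also high, as given below. The shares of calls over all genes of that class are not given here.

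**Figure D1:**
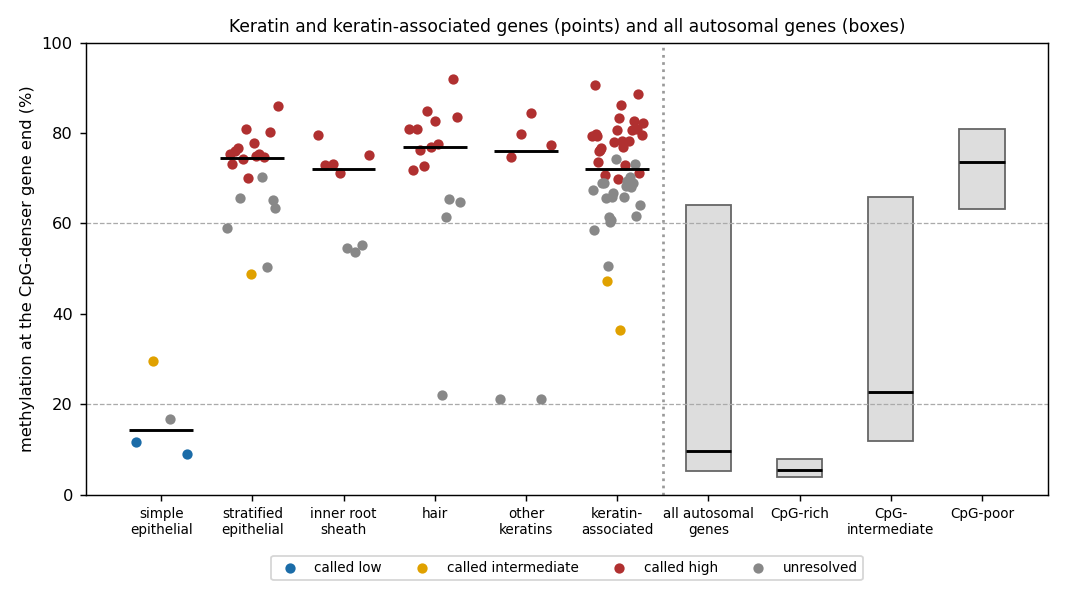
Methylation (%) at the CpG-denser end of each measured keratin and keratin-associated gene (points, coloured by call; horizontal bars are group medians), with the quartiles and medians of all autosomal genes and of their 3 CpG classes as boxes on the right. The 4 simple epithelial keratins lay between 9.005% and 29.7%, a range that also held Krt222, Krt88 and Krt87 of other sets. The medians of the other sets lay between 72.1% and 77.0%.

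Krt18, the type I partner of Krt8, had the lowest level of the 101 measured members. Its denser end, which is its annotated start, had 57 methylated of 633 read counts over 47 CpGs, 9.005% (6.89% to 11.5%), and was called low. Its other end stood at 82.2% and the body between the windows at 68.0%. Within the gene's first 500 bases the level was 6.47%, in the next 500 bases 10.6%, and from 1000 to 1499 bases in it was 71.2%.

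Krt8, the type II partner, lies beside Krt18 on chromosome 15 and also starts in a weakly methylated window. Its start window held 35 methylated of 208 read counts over 35 CpGs, 16.8% (12.01% to 22.6%), so its upper bound kept it unresolved. Its other end stood at 86.9%. The low stretch lay mainly inside the gene: the 500 bases before the start had 36.4% over 6 CpGs, whereas the following spans of 500 bases had 9.80%, 6.96% and 9.003%. From 2000 to 2999 bases in, the level was 63.7%, and the body as a whole, which includes that low stretch, stood at 56.4% and was intermediate. With 250 bp on either side the window had 4.63% and was called low.

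Krt19, a type I keratin of ducts and other simple epithelia, lies in the type I cluster on chromosome 11. The gene table gives no strand for it. Its denser end (chr11:100145426-100146426) had 57 methylated of 494 read counts over 42 CpGs, 11.5% (8.86% to 14.7%), and was called low. Its other end stood at 84.4%. The level was 12.2% in the 500 bases outside that end, 11.5% and 15.3% in the spans of 500 bases inside it, and 83.6% from 1500 bases in.

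Krt7, a type II keratin of ductal and glandular epithelia, had more CpGs in its window than the other 3 and a higher level. Its start window held 191 methylated of 644 read counts over 53 CpGs, 29.7% (26.2% to 33.4%), an intermediate call whose interval overlapped none of those of Krt8, Krt18 and Krt19. The low part was narrow. The 100 bases before the start had 3 methylated of 37 read counts, 8.11%, and the 100 bases from it had 7 of 61, 11.5%. In the printed sequence, the group of 4 CpGs between 192 and 181 bases before the start had 7 of 15, 4 of 15, 8 of 13 and 8 of 13 methylated read counts. The CpGs at 34, 23 and 18 bases before it had 0 of 10, 1 of 9 and 0 of 8. By 500 to 999 bases into the gene, Krt7 stood at 90.2%. The strands differed in the start window, with 18.1% from plus strand reads and 42.3% from minus strand reads, and the cause was not tested.

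**Figure D2:**
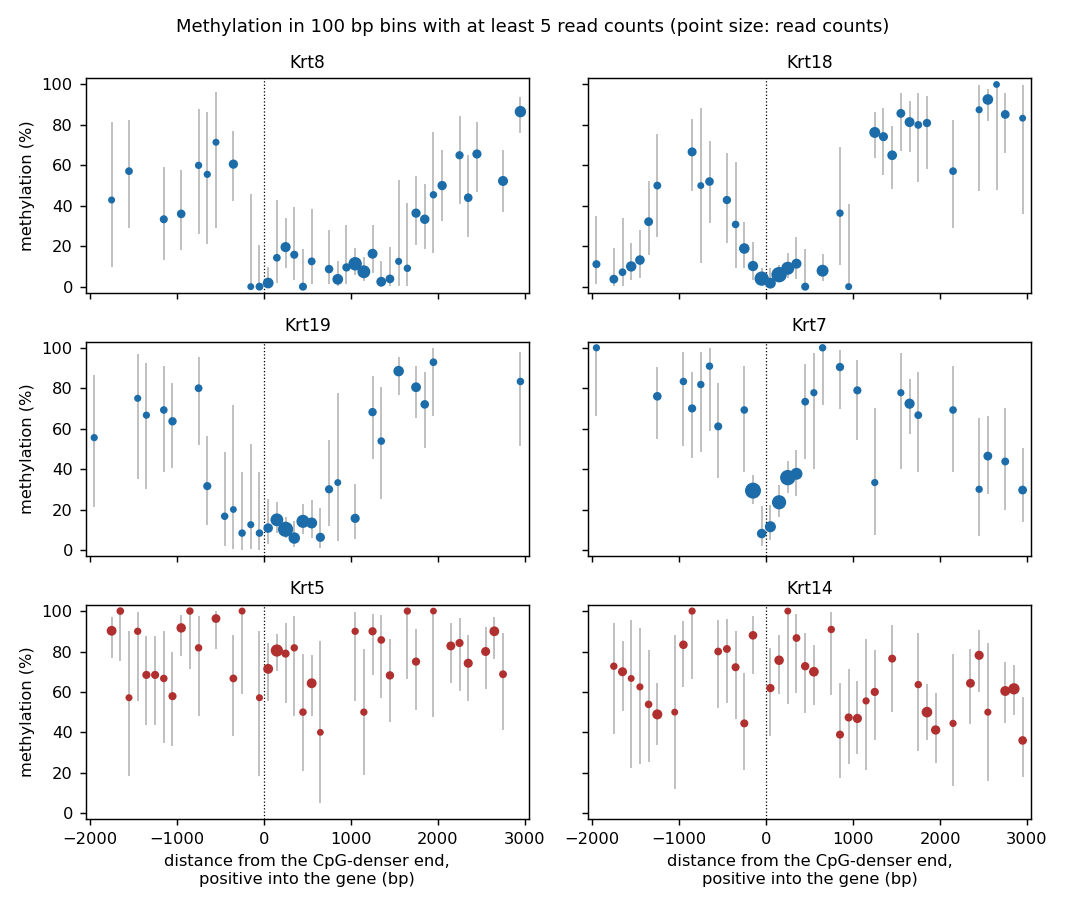
Methylation (%) in bins of 100 bp against the distance (bp) from the CpG-denser end of the 4 simple epithelial keratins (blue) and of the epidermal pair Krt5 and Krt14 (red), with 95% intervals, positive distances lying inside the gene. Krt8, Krt18 and Krt19 show a broad trough and Krt7 a narrow one, whereas Krt5 (72.4% and 75.9% in the 500 bases before and after the end) and Krt14 (73.1% and 75.2%) show none there. For Krt14 that end is the 5′ end of the gene's interval. Its annotated start lies inside the interval, and the window around that start had 52.4%.

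Both ends of the simple epithelial genes were measured, and their levels lay far apart. Krt18, Krt19 and Krt8 had the largest differences among the members measured at both ends, with -73.2, -72.9 and -70.1 percentage points for the denser end minus the other one. At the poorer end all 4 simple epithelial keratins were called high, with a median of 83.3%, against 72.3% over the other keratins and 79.4% over all genes, of which 68.1% were called high there. The denser-end median over all genes, given above, was also far below that 79.4%, so a wide gap is not particular to this set. Outside it, Krt87 had 22.1% at its denser end and 90.5% at the other, a wider gap than Krt7 with 29.7% and 78.7%. Krt222 and Krt88 had wider gaps than Krt7 too.

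The nearest keratin neighbours of these genes ranged widely in level. Krt15, a keratin of basal epidermis and the hair bulge, and Krt9, a keratin of palm and sole skin, flank Krt19 and had 76.8% and 65.7% at their denser ends. Krt7 lies between Krt80 at 48.9% and Krt87 at 22.1%. Beside Krt8, Krt78 stood at 86.1% in a window that overlaps the far end of Krt8 and so shares CpGs with it.

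The keratins of stratified epithelia were mostly methylated at the denser end. Over all measured genes 19.0% were called high there and 59.6% low. In this set 13 of the 20 were called high at the denser end, 1 intermediate, 6 unresolved and none low, with a median of 74.5%. Of these windows 11 were CpG-poor and none was CpG-rich, and levels by CpG class are given below. At the poorer end 8 of the 19 measured were called high, 2 intermediate and 9 unresolved, with a median of 71.04%, against 68.1% called high over all genes. In the basal pair, Krt5 had 147 methylated of 195 read counts, 75.4% (68.7% to 81.3%), and Krt14 had 133 of 179, 74.3% (67.2% to 80.5%). The denser end of Krt14 is the 5′ end of the gene's interval, and the annotated start lies 1480 bp inside it. The window around that start was lower, at 52.4%, as was the body at 55.5%. The wound-induced keratins Krt6a, Krt16 and Krt17 had 75%, 80.8% and 70.1%. The lowest of the set were Krt80 at 48.9% (42.7% to 55.1%), Krt77 at 50.5% and Krt24 at 58.9%. The highest were Krt78 at 86.1%, Krt16, and Krt76, a keratin of the palate, at 80.3%. The Krt16 level moved with the setting. It was 90.9% from plus strand reads, 70.2% from minus strand reads and 63.2% with 1000 bp on either side. The Krt78 window lies far from the annotated Krt78 start and holds the far end of Krt8.

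Krt1 and Krt10, the pair of the upper epidermal layers, were methylated at the denser end but not throughout. Krt1 had 147 methylated of 197 read counts there, 74.6% (67.9% to 80.5%), against 33.3% (23.4% to 44.5%) at its other end and 37.8% in its body. No strand was given for Krt1. Krt10 had 40 of 53, 75.5%, at its denser end and 69.0% around its annotated start, with 52.6% in its body. Its start lies within the interval of the gene table, 8085 bp from the denser end. The sequence there (chr11:99389335-99389614, minus strand) is printed because it holds 2 CpGs within 280 bases, and 3 of 4 read counts on them were methylated.
Krt10: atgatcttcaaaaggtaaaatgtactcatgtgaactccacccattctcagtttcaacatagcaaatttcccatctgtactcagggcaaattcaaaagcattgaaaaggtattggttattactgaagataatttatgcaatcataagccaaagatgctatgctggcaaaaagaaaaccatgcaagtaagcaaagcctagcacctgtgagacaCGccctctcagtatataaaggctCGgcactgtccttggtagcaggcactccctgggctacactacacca

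The weakly methylated parts of Krt10 and Krt77 lay away from their annotated starts, whereas the start of Krt1 is not given. Scanned in windows of 1 kb, the clusters of type I and type II genes held 10 separate stretches, each merged from windows whose intervals lay under 20%, and 6 with minus strand reads alone. Such windows made up 0.521% of those of the type I cluster and 1.93% of those of the type II cluster, against 3.77% over all autosomes. In Krt10 the stretch (chr11:99385061-99386960) had 91 methylated of 623 read counts over 82 CpGs, 14.6%, and ended 2404 bp short of the start, on the 3′ side. Its core, a bin of 250 bp with 43 CpGs, had 27 of 359, 7.52%. In Krt77, a type II keratin, the stretch (chr15:101859015-101860914) had 73 of 695 read counts over 54 CpGs, 10.5%, at 8791 bp from the start, with 10 of 264, 3.79%, in one bin of its core. In Krt1 it lay at the lower-coordinate end (chr15:101845315-101846914) and had 83 of 526 over 55 CpGs, 15.8%. These 3 genes held a CpG-dense, weakly methylated stretch near the end that the denser-end rule did not choose. With windows of 1000 bp on either side, the denser end of Krt1 and of Krt10 became that other end, and their levels there were 17.1% and 13.4%.

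**Figure D3:**
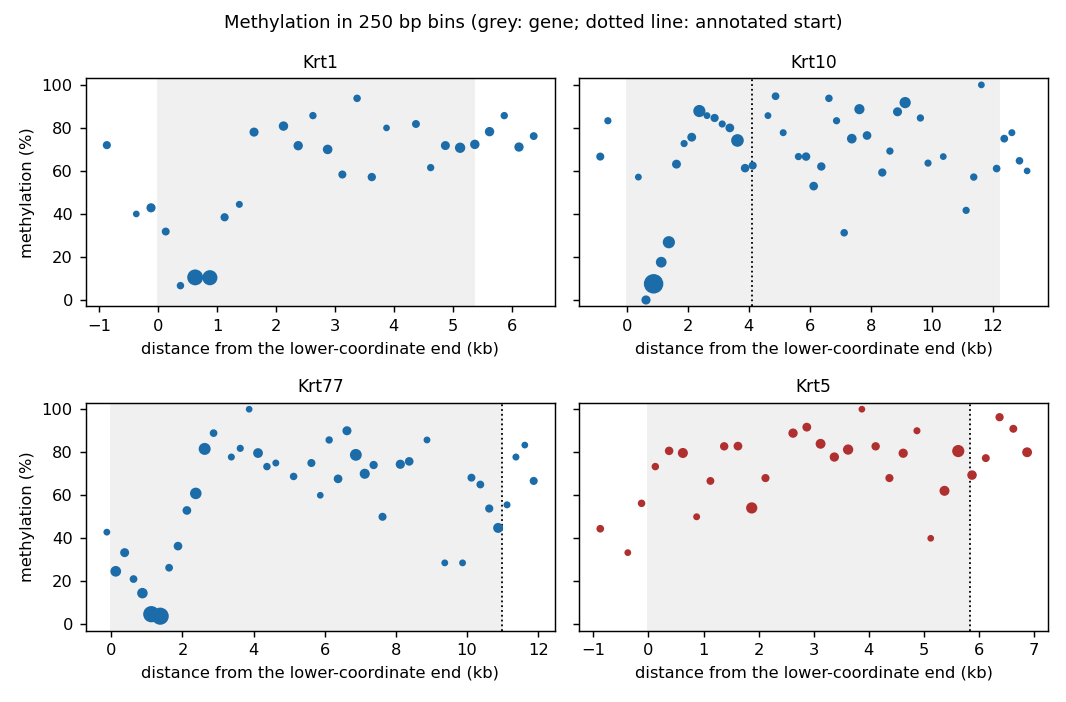
Methylation (%) in bins of 250 bp against distance (kb) from the lower-coordinate end of Krt1, Krt10, Krt77 and, in red, Krt5. Point size grows with read counts, grey marks the gene and the dotted line its annotated start where one is given. Krt1, Krt10 and Krt77 drop to 10.5%, 7.52% and 3.79% in their best covered low bins, near the lower-coordinate end, and Krt5 shows no such drop.

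Of the other stretches in these clusters, 1 lay at Krt19 and 4 at or between Krt8 and Krt18. The stretch over the Krt8 start (chr15:102002315-102004714) had 93 methylated of 726 read counts over 86 CpGs, 12.8%, and that over the Krt18 start (chr15:102027415-102029414) 84 of 761 over 65 CpGs, 11.04%. Between the genes, a further stretch (chr15:102024615-102026914) ended 1302 bp before the Krt18 start and overlapped no protein-coding gene. It had 39 of 467 read counts over 50 CpGs, 8.35%, the lowest of the 10. Another (chr15:102006115-102007214), 1773 bp before the Krt8 start, had 12 of 105 over 11 CpGs, 11.4%. The remaining 2 lay inside the table's interval of Krt78, 22428 and 29528 bp upstream of its start, with 14.1% over 41 CpGs and 17.0% over 25 CpGs.

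**Figure D4:**
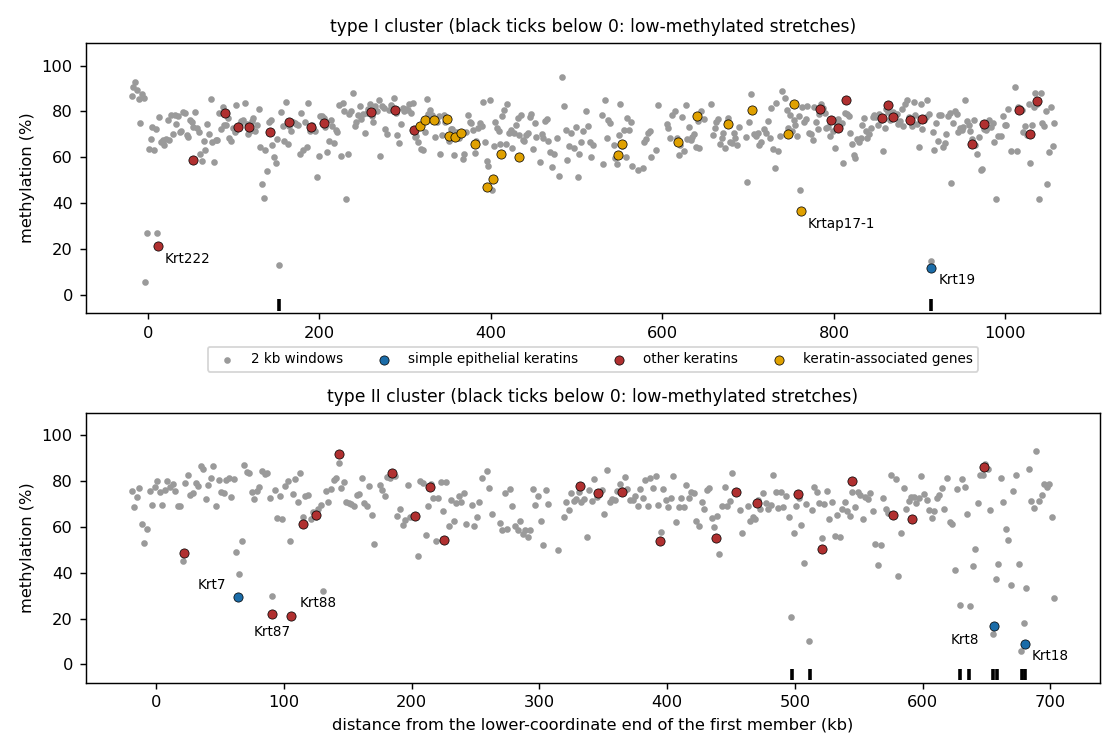
Methylation (%) in windows of 2 kb (grey) and at the CpG-denser end of each measured member (coloured) along the type I and type II clusters, against distance (kb) from the first member; black ticks mark the low stretches. The clusters stood at 71.4% and 66.5% as a whole, and 4 of the 10 ticks lie at or between Krt8 and Krt18.

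The keratins of the inner root sheath and companion layer, which surround the growing hair, were measured in full. Of these 8 genes, 5 were called high, 3 unresolved and none low, against 19.0% high and 59.6% low over all measured genes. The median of the 8 was 72.1%. The lowest were 3 type II genes, Krt71 at 53.8%, Krt75 (of the companion layer) at 54.5% and Krt72 at 55.3%. The highest were Krt27 at 73.1%, Krt73 at 75.1% and Krt25 at 79.5%. Krt28, singled out after its values were seen, had 39.3% at its 3′ end against 72.7% at its denser end.

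Of the 15 hair keratins, 11 were called high, 4 unresolved and none low, against 19.0% high and 59.6% low over all measured genes. The median of the 15 was 77.0%. Of their windows 6 were CpG-poor and 1 was CpG-rich. The highest were Krt83 with 216 methylated of 235 read counts, 91.9% (87.7% to 95.1%), Krt31 at 84.9% and Krt84 at 83.5%. The lowest was Krt87, a type II hair keratin beside Krt7, followed by Krt81 at 61.4% and Krt82 at 64.7%. Krt87 had 96 of 435 read counts over 52 CpGs, 22.1% (18.3% to 26.3%), against 90.5% at its other end. Its window was the sole CpG-rich one among the keratins outside the simple epithelial set, and its interval overlapped those of Krt8 and Krt7 but lay above those of Krt18 and Krt19. Here too the strands differed, with 13.9% from plus strand reads and 29.5% from minus strand reads.

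Among the other 6 keratins, Krt20, a keratin of the simple epithelium of the intestine, had 74.7%, unlike the 4 genes of the simple epithelial set, and Krt23 had 79.8%. Krt222 and Krt88, singled out after their values were seen, had levels near 20%. Krt222 had 32 methylated of 152 read counts over 22 CpGs, 21.1% (14.9% to 28.4%), in a window that also holds an end of the noncoding RNA gene Gm32385. Krt88 had 22 of 104 over 14 CpGs, 21.2% (13.8% to 30.3%). Neither call was resolved. With windows of 1000 bp on either side Krt222 had 31.7% and Krt88 67.3%, and with 250 bp Krt222 had 7.84%.

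By cluster, the type I keratins other than Krt19 had a median of 75.7% and the type II keratins outside the simple epithelial set 65.4%. In the type I cluster 23 of 26 were called high and 3 unresolved. In the type II cluster 10 of 23 were called high, 1 intermediate and 12 unresolved. Over all measured genes 19.0% were called high, 5.16% intermediate, 16.3% unresolved and 59.6% low. Neighbouring genes of a cluster share their region and are not independent, and no test was made. The whole type I cluster (chr11:99232761-100269951) had 71.4% (71.1% to 71.8%), against 53.9% and 59.1% in the 500 kb on either side and 63.1% over chromosome 11. The whole type II cluster (chr15:101348315-102032026) had 66.5% (66.1% to 66.8%), against 55.3% and 51.5% in its flanks and 66.4% over chromosome 15. Both clusters had fewer CpGs per kb than their flanks, at 9.78 against 15.8 and 15.2 for type I and 10.9 against 16.4 and 14.2 for type II, and the part of CpG number in these differences was not tested.

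The keratin-associated genes lie in 4 clusters and at 1 single site, and their start and end windows often overlap because the genes are short, with a median length of 833 bp. Over all measured genes 19.0% were called high at the denser end and 59.6% low. Of the keratin-associated genes, 25 of the 48 measured were called high, 2 intermediate, 21 unresolved and none low. The other 8 had too few covered CpGs or read counts (Krtap5-1, Krtap5-2, Krtap5-5, Krtap4-13, Krtap9-5, Krtap27-1, Krtap6-1 and Krtap20-2). Windows of the keratin-associated genes were mostly CpG-poor, 50 of 56. Their median was 11 CpGs, against 22 in the keratins outside the simple epithelial set. Many of these genes are near copies of their neighbours, and how reads that match several copies were placed is not given in the sources used here.

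In the type I cluster, 21 of 23 keratin-associated genes were measured, with a median of 69.0%. Krtap17-1 was the lowest keratin-associated gene of all measured, with 112 methylated of 308 read counts over 30 CpGs, 36.4% (31.0% to 42.0%), an intermediate call. Its other end had 51.8%. Its start (chr11:99993965-99994244, minus strand), printed as the lowest of its family, had 25 of 45 read counts over 7 CpGs, 55.6%, a higher level than that of the whole window.
Krtap17-1: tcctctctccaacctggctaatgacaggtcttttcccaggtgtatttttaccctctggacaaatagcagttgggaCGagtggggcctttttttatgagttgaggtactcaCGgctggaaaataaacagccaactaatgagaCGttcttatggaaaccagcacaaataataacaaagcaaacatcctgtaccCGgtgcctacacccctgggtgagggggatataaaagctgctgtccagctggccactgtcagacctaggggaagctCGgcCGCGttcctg
Krtap4-1, an ultrahigh-sulfur gene, was also intermediate, at 47.2% (36.5% to 58.1%), and its neighbour Krtap4-2 had 50.5%. The Krtap4-1 level moved with the window, to 86.05% with 250 bp on either side. The highest of the cluster were Krtap16-1 at 83.3%, Krtap31-2 at 80.6% and Krtap9-1 at 78.0%.

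The chromosome 16 cluster, which includes the glycine- and tyrosine-rich families, had 21 of 24 genes measured, with a median of 73.1%. Of these, 12 were called high and 9 unresolved, against 19.0% high and 16.3% unresolved over all measured genes. In this cluster 20 of the 24 windows were CpG-poor. The measured genes ran from Krtap6-5 at 61.5%, Krtap8-1 at 64.0% and Krtap13 at 65.9% to Krtap16-3 at 82.6%, Krtap24-1 at 86.2% and Krtap21-1 at 88.7%. The cluster as a whole had 71.1%, against 66.7% and 81.1% in its flanks, at 3.83 read counts per CpG, and this lower depth widens the intervals. The 3 genes on chromosome 10, which lie within the interval of Tspear, had 79.3%, 79.8% and 90.6%. On chromosome 7, Krtap5-3 and Krtap5-4 were measured, at 67.5% and 58.5%. The single gene Krtap28-13 on chromosome 1 had 79.3%.

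CpG-rich windows tend to be unmethylated, so level was set beside CpG number. Over the 53 keratins, Spearman's rho between CpG number and level was -0.425. It was -0.284 over the 49 keratins outside the simple epithelial set, 0.130 over the 48 keratin-associated genes and -0.863 over all 18758 genes. These are descriptions across genes that share 1 library pool and neighbouring regions. Among windows of intermediate CpG number, 20 of the 30 keratins outside the simple epithelial set were called high and none low, with a median of 73.1%, and the 6 keratin-associated genes had a median of 80.05%. Over all genes of that class 24.0% were called high and 34.8% low, with a median of 22.8%. Krt8, of the same class, had 16.8%. Among CpG-poor windows the medians were 76.1% in 18 keratins and 71.0% in 42 keratin-associated genes, against 73.7% over all genes. The 4 CpG-rich keratin windows, those of Krt18, Krt19, Krt87 and Krt7, had a median of 16.8%, and 2 of them were called low, against a median of 5.50% and 96.8% called low over all CpG-rich windows.

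**Figure D5:**
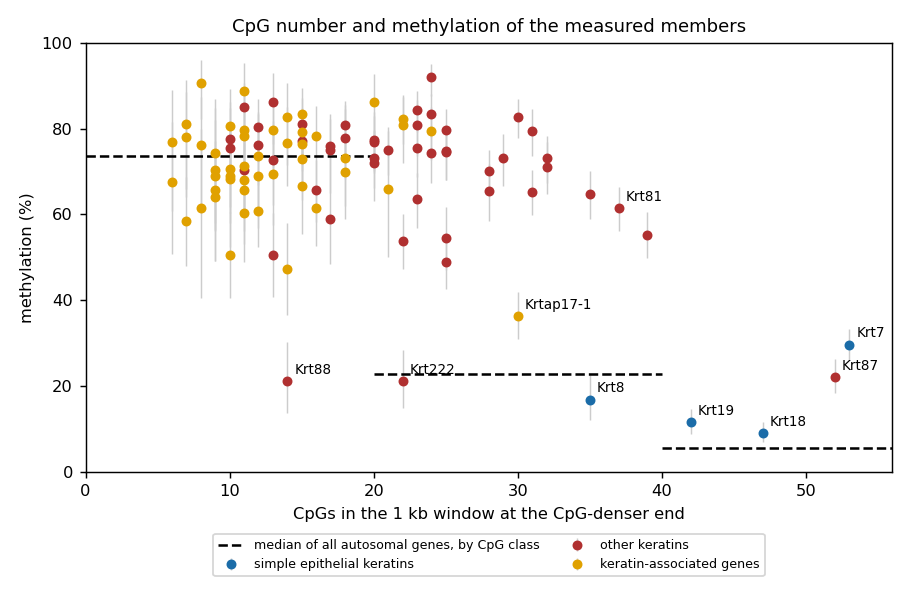
Methylation (%) at the CpG-denser end against the number of CpGs in its window for each measured member, with 95% intervals; dashed lines are the medians of all autosomal genes in each CpG class. Keratins with 20 to 39 CpGs lie mostly above the class median of 22.8%, and the 4 keratins with the most CpGs lie above the CpG-rich median of 5.50%.

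Where RefSeq gave a start, levels were also taken in the window around it. Of 36 keratins, 1 was called low (Krt18), 2 intermediate (Krt7 and Krt14), 22 high and 11 unresolved. Of 41 keratin-associated genes, none was called low, 2 intermediate, 18 high and 21 unresolved, against 66.3% low, 4.25% intermediate, 14.7% high and 14.8% unresolved over 14533 genes. The 300 bases around the start held a median of 17 CpGs in the 3 simple epithelial keratins given, with a range of 6 to 21. Krt8 had the 6, within the range of 2 to 11 of the other keratins, whose median was 4. The medians were 2 in the keratin-associated genes and 14 over 16457 genes.

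Short motifs were counted in those 300 bases on both strands, as matches of letters alone. TATAAA, the TATA box core, stood in 19 of 36 keratin promoters (52.8%) and 42 of 51 keratin-associated promoters (82.4%), against 13.5% of all. In the printed sequences it begins 26 bases before the start of Krt10 and 31 before that of Krtap17-1, and in Krt8 it overlaps the annotated start. GGGCGG, the core of the GC box, stood in 2 keratin promoters, those of Krt7 and Krt75, and in 0 of 51 keratin-associated promoters, against 47.3% of all. TGANTCA, the AP-1 site, stood in 1 keratin promoter and 10 keratin-associated promoters (19.6%), against 7.12% of all. GCCNNNGGC, the core of the AP-2 site, stood in 7 keratin promoters (19.4%), Krt7 and Krt18 among them, and in 1 keratin-associated promoter, against 20.03% of all.

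Gene bodies were mostly methylated, in simple epithelial and other keratins alike. The body of a gene is the part between its end windows. The simple epithelial keratins had a median body level of 67.1% and the other keratins 73.7%, against 72.1% over all genes. Among the 53 keratins, 46 bodies were called high, 6 intermediate and none low, against 71.3% high, 15.6% intermediate and 3.63% low over 18467 genes. The intermediate ones were Krt1 at 37.8%, Krt77 at 44.8%, Krt86 at 45.7%, Krt10 at 52.6%, Krt14 at 55.5% and Krt8 at 56.4%. Too few keratin-associated genes have a body outside their windows, so whole genes were taken, with a median of 70.3% over 39 genes.

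Lists of related genes were read in the same windows, namely other intermediate filaments, desmosomes and epithelial adhesion, transcription factors and the cornified envelope. Over all measured genes 59.6% were called low there, with a median of 9.70%. Of 15 other intermediate filament genes, 12 were called low, with a median of 5.82%, from Bfsp1 at 2.44% and Synm at 2.72% to Gfap, the astrocyte filament, at 56.5% and Bfsp2, a lens filament, at 78.9%. Of 17 genes of desmosomes and epithelial adhesion, 11 were called low, 64.7% and so near the share over all genes, with a median of 8.19%. There Pkp4 had 2.27% and Dsp, which ties keratins to desmosomes, 3.02%, against 74.4% for Pkp3 and 84.0% for Dsg3, a desmosomal cadherin of stratified epithelia. Of 15 transcription factor genes of epithelium and hair, 12 were called low, with a median of 6.99%, from Klf5 at 1.63% and Klf4 at 2.78% to Gata3 at 76.9% and Foxn1 at 82.0%. Gata3 had 15.3% at its other end. Of 16 measured genes of the cornified envelope and hair sheath, 2 were called low, Lor at 8.85% and Crct1 at 13.0%, with a median of 57.4% and highest levels in Sprr2d at 82.8% and Rptn at 89.7%.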

How the data were processed

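Members and gene lists were chosen with earlier results of these data known. The deposited values are counts of methylated and unmethylated reads on each strand of every CpG, made by the authors and not normalized. The submitters' processing notes name cutadapt 1.3, Bismark 0.12.5, Bowtie2 2.1.0 and the build mm10, with no role or order. Removal of duplicate reads and the pooling of the 2 samples are steps not given in the sources used here, and duplicate reads would make the intervals too narrow.

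The strands of each CpG were summed, and read counts were added over a region. A read that spans several CpGs thus counts at each, which also makes the intervals too narrow. Over autosomes, 89.9% of CpGs had a read. Windows, bodies, depth minimums and calls are those stated with the results, at a confidence level of 95%. Gene ends and symbols came from the RefSeq table of GRCm38.p6. Annotated starts and strands came from the RefSeq promoter table, and the most upstream start was taken where a gene had several. In that table all 315831 CG dinucleotides stood at a CpG position of the deposited counts. A scan moved a 1000 bp window by 100 bp and required 10 CpGs and 50 read counts. Overlapping windows called low were merged. This scan was added after the data were seen. Clusters joined members less than 500 kb apart.

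Genes were named by rule. The rule took the 4 simple epithelial keratins, every member called low or intermediate, and the 3 largest differences between ends. It also took the 3 highest and 3 lowest of each set and of each cluster with at least 5 measured keratin-associated genes. It further took the epidermal pairs, the wound keratins and the nearest neighbours of the 4 simple epithelial keratins. Of each list of related genes it took the 2 lowest and 2 highest. Genes named outside this rule, and those with low stretches or intermediate bodies, were chosen after their values were seen. Alternatives changed the summary of a region, the strand, the depth minimum, very deep CpGs, the window, the end, overlapping windows, the call thresholds and the extent of the body. Python 3.11.15, numpy 2.4.6, pandas 2.3.3, SciPy 1.17.1 and matplotlib 3.10.9 were used, and the level and call functions were tested on simulated data.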

Additional observations from a re-analysis of the deposited data

How the results depend on the processing

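At the CpG-poorer end the order of the sets turned round, with a median of 83.3% in the 4 simple epithelial keratins and 72.3% in the other keratins. With 250 bp on either side the median of the 4 was 9.13%. With 1000 bp on either side, Krt1 fell to 17.1% and Krt10 to 13.4%, because the other end then held more CpGs. Keratins called low numbered 2 as reported, 4 with plus strand reads alone, 4 with 250 bp on either side, 1 at annotated starts, 0 at the poorer end, 0 with calls at 10% and 80%, and 5 with calls at 30% and 50%. Keratins called high numbered 33 as reported and 1 with calls at 10% and 80%. Keratin-associated genes called high numbered 25 as reported, 16 with minus strand reads alone, 14 with 250 bp on either side, 13 at the poorer end, 1 with calls at 10% and 80%, and 40 with calls at 30% and 50%. Whole genes in place of bodies gave medians of 51.8% in simple epithelial keratins and 70.3% in keratin-associated genes. The type I cluster had 71.1% from plus and 71.8% from minus strand reads, and the type II cluster 67.1% as a mean of CpG fractions. Low stretches numbered 10 as reported and 6 with minus strand reads alone; the alternatives for these stretches were chosen after seeing the data. The cause of these shifts was not tested beyond what each alternative changes. Across alternatives other than the poorer end, Krt18 ranged from 5.86% to 13.2%, Krt19 from 10.7% to 14.4%, Krt8 from 4.63% to 22.4% and Krt7 from 18.1% to 42.3%. Of the 48 measured keratin-associated genes 21 were unresolved, and the parts of depth, CpG number and nearness to a threshold in this were not tested. No paired analysis was possible because the table holds 1 group with no column per sample.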

Other observations

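The Krtap cluster on chromosome 7 (chr7:142174532-142304503) stood at 60%, against 60.7% and 61.9% in its flanks and 64.3% over the chromosome. Of its 1 kb windows that passed the depth minimum, 20 of 170 were called low, 11.8%, against 3.77% over all autosomes, and they merged into 1 stretch (chr7:142282832-142285731). That stretch had 95 CpGs and 12.4% (10.4% to 14.6%), and overlapped no protein-coding gene of the table. The nearest gene end was that of Gm10013. The Krtap clusters on chromosomes 10 and 16 had 0 of 365 and 0 of 983 windows called low. The chromosome 10 cluster stood at 74.3%, against 66.1% and 68.8% in its flanks and 67.2% over the chromosome.

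Lor, the gene of loricrin, a main protein of the cornified envelope, had 8.85% (5.69% to 13.0%) at its CpG-denser end over 33 CpGs and 4.28% in its body, against 79.4% at its other end. Crct1, another gene of the cornified envelope list, had 13.0% at its denser end and 14.9% in its body, against 42.0% at its other end. Klf4, a transcription factor of the epidermal barrier, had 12.7% in its body.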
